A study of Homo sapiens with 16 samples.

Results

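HMOX1, SLC40A1 and GPX2 are a heme oxygenase, an iron exporter and an epithelial glutathione peroxidase, and their RNA was followed across the 6 groups of a study of AsPC-1 cells. They were chosen by name, as the probe sets annotated to these genes alone, and each gene had 1 such probe set (203665_at, 223044_at and 202831_at), giving 3 genes of the 5250 with a named probe set. The choice was made with results of these arrays known, from the values of the same groups, so the members' levels and changes are given as a description, with errors and without p-values. AsPC-1 is an established human pancreatic adenocarcinoma line, and the labels name it as the source of all groups. In the drug experiment, cells were kept for 6 h or 24 h with 10 µM ICG-001 or with the vehicle DMSO, with 3 Affymetrix arrays in each of the 4 groups. In a separate experiment, cells were transfected by lipid reagent with 20 nM of an siRNA against CTNNB1, the β-catenin gene, or of a control siRNA, and RNA was taken at 48 h, with 2 arrays in each of the 2 groups. ICG-001 is known as an inhibitor of the partnership between β-catenin and its coactivator CBP.

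Heme oxygenase, encoded by HMOX1, opens the heme ring and releases iron, carbon monoxide and biliverdin. SLC40A1 encodes ferroportin, which carries iron out of the cell and is removed from the membrane when the hormone hepcidin binds it. GPX2 is a selenoprotein of gut-type epithelia that reduces hydroperoxides with glutathione. The oxidative stress factor NRF2 is known to raise transcription of all 3 genes, the repressor BACH1 to hold down HMOX1 and SLC40A1, and β-catenin with TCF factors to raise GPX2.

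The GPX2 promoter is shown because GPX2 was far lower with the CTNNB1 siRNA, and the SLC40A1 promoter because SLC40A1 was the member most lowered with ICG-001 at 6 h. The sequences are the 250 bases before the start of the gene, from RefSeq on GRCh38.p14, read 5′ to 3′ on the gene's strand. GPX2 lies at chr14:64942746-64942995 and SLC40A1 at chr2:189580787-189581036, both on the minus strand. Capitals mark matches, on either strand, to TGACNNNGC, the core of the antioxidant response element that NRF2 binds, and to CTTTGA, a core bound by TCF factors.
GPX2: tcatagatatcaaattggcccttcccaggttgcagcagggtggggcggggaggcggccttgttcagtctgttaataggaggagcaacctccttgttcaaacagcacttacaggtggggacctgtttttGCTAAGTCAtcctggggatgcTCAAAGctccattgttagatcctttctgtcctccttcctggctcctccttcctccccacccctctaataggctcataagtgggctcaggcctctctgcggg
SLC40A1: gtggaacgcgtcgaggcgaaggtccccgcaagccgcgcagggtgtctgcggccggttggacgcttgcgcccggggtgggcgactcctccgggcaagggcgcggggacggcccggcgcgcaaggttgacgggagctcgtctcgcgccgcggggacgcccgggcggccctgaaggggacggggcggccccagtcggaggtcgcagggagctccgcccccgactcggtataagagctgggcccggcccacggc
GPX2 held both motifs, each on the opposite strand, the first starting at position -122 and the second at -101 counted from the gene's start, with no overlap between them. SLC40A1 held neither in this window. In 27305 promoter windows of the same length, 11.0% held TGACNNNGC and 11.4% held CTTTGA, so a match to either is common and is a description of the letters only. The promoter of HMOX1 was not used here.

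The deposited values are intensities on a linear scale. The median probe set stood at 20.6 to 28.6 on the 12 drug arrays and at 12.7 to 13.1 on the 4 siRNA arrays. The mean intensity was 164 to 165 with ICG-001 against 132 to 136 with DMSO at 6 h. At 24 h it was 171 to 179 against 135 to 137. Changes are given on the log2 scale after adding 16 to each intensity and quantile normalization over all 16 arrays, with the change in the deposited scaling beside them. Quantile normalization removes this difference in array mean between ICG-001 and DMSO, and the deposited scaling keeps it. The source of the difference was not tested. The knockdown was not checked on its target, because 0 of the probe sets used name CTNNB1 as their single gene. Of 10 epithelial markers, 4 were measured. CDH1 stood at 273 to 371 and KRT19 at 73.4 to 109.6 on the drug arrays, and on the siRNA arrays, control siRNA included, at 8.68 to 16.6 and 7.23 to 15.8. KRT7 and MUC1 were also lower there (80.3 to 255 and 242 to 348, against 708 to 1590.35 and 939 to 1424). After normalization 36.6% of genes differed by over 2-fold between the drug and siRNA arrays, and since each experiment has its own arrays, levels are compared only within an experiment. All samples are labelled AsPC-1, and the source of these differences between the experiments was not tested. Of 10 leukocyte and blood markers, 3 were measured, and PTPRC and CD163 lay at 1 to 31.7 on all arrays, while HBB lay at 28.7 to 46.5 on the drug arrays and at 85.9 to 106 on the siRNA arrays. The 2 endothelial markers measured of 6, PECAM1 and KDR, lay at 1 to 21.3. Summed over the 4 of 8 fibroblast markers measured, intensity was 332 to 425 with ICG-001, 311 to 420.4 with DMSO, 199 to 208 with CTNNB1 siRNA and 138 to 178 with control siRNA. The part of these other markers in the results was not tested.

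**Figure D1:**
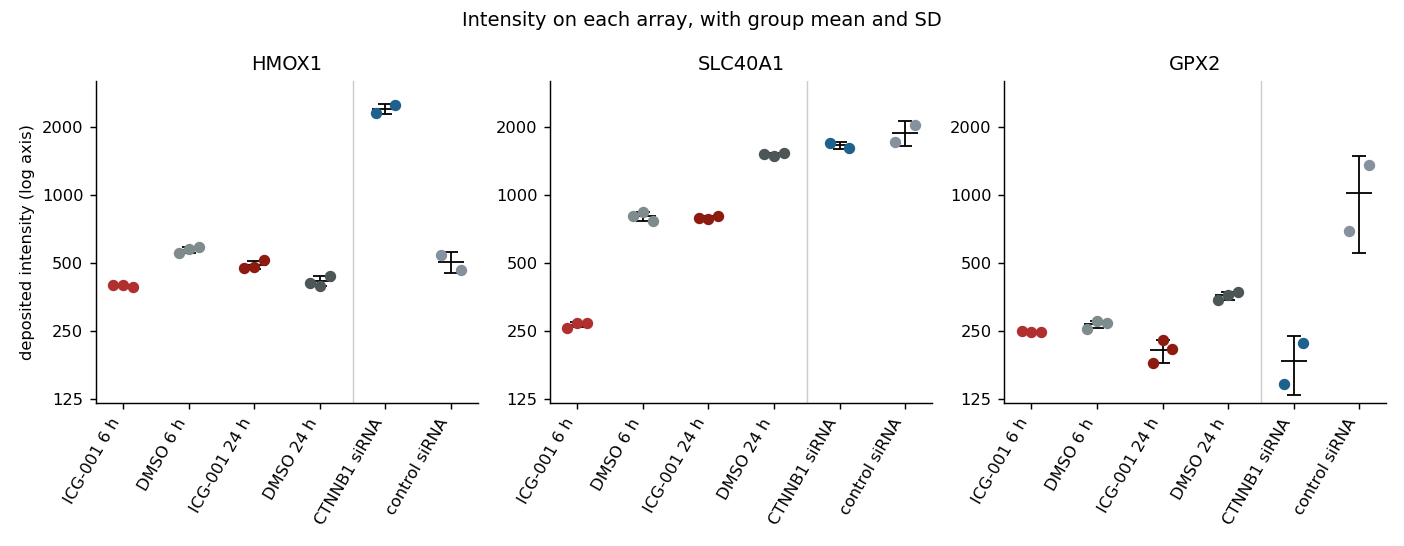
Deposited intensity (log axis) of HMOX1, SLC40A1 and GPX2 on each of the 16 arrays; each point is an array, and the black bars are the group mean and SD (n = 3 for the ICG-001 and DMSO groups, n = 2 for the siRNA groups). HMOX1 was highest with CTNNB1 siRNA, at 2321 and 2506, SLC40A1 was lowest with ICG-001 at 6 h, and GPX2 was spread widely between the 2 control siRNA arrays.

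HMOX1 was low with ICG-001 at 6 h and high with CTNNB1 siRNA. At 6 h its intensity was 399, 399 and 392 on the ICG-001 arrays, against 553, 575 and 588 on the DMSO arrays. The groups did not overlap, and the mean was 397 ± 4.21 with ICG-001 against 572 ± 17.4 with DMSO (SD, n = 3 each), 30.6% lower. The log2 change was -0.70 ± 0.07 (± SE), or -0.51 in the deposited scaling. In RNA from a whole culture, fewer cells with the RNA and less RNA per cell cannot be told apart.

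At 24 h HMOX1 stood at 476, 483 and 514 with ICG-001, against 411, 397 and 439 with DMSO. In these intensities every ICG-001 array was above every DMSO array, with means of 491 ± 20.2 and 416 ± 21.4 (SD, n = 3 each). The direction depended on the scaling, however, with a log2 change of -0.03 ± 0.07 after quantile normalization, 0.23 in the deposited scaling and 0.11 with each array centred on its median. After quantile normalization the arrays of the groups overlapped. The level in DMSO cultures was itself lower at 24 h than at 6 h, by 27.3% in mean intensity (log2 change -0.49 ± 0.07). The ICG-001 effect at 24 h minus that at 6 h was 0.67 ± 0.10 on the log2 scale, and 0.74 in the deposited scaling.

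With CTNNB1 siRNA HMOX1 had an intensity of 2321 and 2506, against 546 and 467 with control siRNA. Both knockdown arrays lay far above both control arrays, at a mean of 2414 ± 131 against 506 ± 55.7 (SD, n = 2 each), a ratio of 4.77. The log2 change of 2.41 ± 0.09 (2.22 in the deposited scaling) was the highest among the 5250 genes. It was also the highest in the deposited scaling, with arrays centred on their medians and with 64 in place of 16 added. It was the 17th with 1 added, which enlarges changes of dim genes, and the 2nd without CTNNB1 siRNA replicate 2. This rank and those below are among probe sets with an SD over the arrays of about 0.40 times their mean or more. On the other arrays HMOX1 lay at 392 to 588, so the CTNNB1 siRNA arrays bear on its place in the table as well as on its rank.

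SLC40A1 was lower with ICG-001 at both times, while its level was higher at 24 h than at 6 h in drug and vehicle cultures alike. At 6 h it had an intensity of 258.5, 273 and 272 with ICG-001, against 808, 845 and 772 with DMSO. The highest ICG-001 array was well under the lowest DMSO array, and the means were 268 ± 7.89 and 808 ± 36.7 (SD, n = 3 each), 66.9% lower with ICG-001. Its log2 change of -1.77 ± 0.07 (-1.54 in the deposited scaling) was the 3rd lowest of the 5250 genes at 6 h, the 4th lowest in the deposited scaling and the 7th with 1 added. Outside the ICG-001 6 h arrays SLC40A1 lay at 772 to 2055, so those arrays bear on its place in the table as well as on its rank.

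At 24 h SLC40A1 stood at 794, 785 and 810.5 with ICG-001, against 1518, 1493 and 1534 with DMSO. The groups were again apart, at means of 796 ± 13.0 and 1515 ± 20.7 (SD, n = 3 each), 47.4% lower with ICG-001, and the log2 change was -1.23 ± 0.07 (-0.91 in the deposited scaling). In mean intensity the 24 h level was 2.98 times the 6 h level in ICG-001 cultures and 1.87 times in DMSO cultures, where the log2 change over time was 0.93 ± 0.07. ICG-001 cultures at 24 h overlapped DMSO cultures at 6 h in deposited intensity, but after quantile normalization they lay lower, at 9.45 to 9.55 against 9.75 to 9.88 on the log2 scale. The ICG-001 effect was smaller in size at 24 h than at 6 h by 0.54 ± 0.10 on the log2 scale (0.62 in the deposited scaling).

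With CTNNB1 siRNA SLC40A1 had an intensity of 1704 and 1618, against 1719.97 and 2055 with control siRNA. The higher knockdown array was just below the lower control array, and the means of 1661 ± 61.2 and 1887 ± 237 (SD, n = 2 each) differed by less than 1 SD of the control. The log2 change was -0.26 ± 0.09 (-0.18 in the deposited scaling), and it was -0.43 without control siRNA replicate 1 and -0.09 without control siRNA replicate 2.

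GPX2 was lower with CTNNB1 siRNA and, at 24 h, with ICG-001. At 6 h its intensity was 249.7, 249 and 248 with ICG-001, against 257, 276 and 272 with DMSO. The groups did not overlap but lay close, at means of 249 ± 0.814 and 268 ± 10.2 (SD, n = 3 each), with a log2 change of -0.21 ± 0.18 (-0.10 in the deposited scaling).

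At 24 h GPX2 stood at 180.4, 228 and 208 with ICG-001, against 344, 362 and 373 with DMSO. Every ICG-001 array was below every DMSO array, with means of 206 ± 24.0 and 359.7 ± 14.6 (SD, n = 3 each), 42.8% lower, and a log2 change of -1.02 ± 0.18 (-0.77 in the deposited scaling). Over time GPX2 was 1.34 times higher in DMSO cultures at 24 h than at 6 h, a log2 change of 0.43 ± 0.18, and 0.827 times its 6 h level in ICG-001 cultures. The ICG-001 effect at 24 h minus that at 6 h was -0.81 ± 0.25 (-0.66 in the deposited scaling). These errors share 1 estimate of the spread over all 16 arrays, to which the control siRNA arrays add, and with the drug arrays alone the SE of both ICG-001 effects was 0.08.

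With CTNNB1 siRNA GPX2 had an intensity of 146 and 223, against 694.5 and 1359.59 with control siRNA. The control arrays differed 1.96-fold from each other, and both knockdown arrays still lay under both. The means were 185 ± 53.9 and 1027 ± 470.3 (SD, n = 2 each), 82.0% lower with CTNNB1 siRNA. The log2 change of -2.25 ± 0.22 (-2.33 in the deposited scaling) was the 4th lowest of the 5250 genes, the 2nd lowest in the deposited scaling and the 19th with 1 added. It was -2.78 without control siRNA replicate 1 and -1.71 without control siRNA replicate 2. The SE of 0.22 draws on the spread of all 16 arrays and understates that of the siRNA arrays. Their log2 values were 9.66 and 10.73 with control siRNA and 7.71 and 8.19 with CTNNB1 siRNA. In the fit on the siRNA arrays alone the SE of this GPX2 change was 0.29. There too limma draws the SE towards the spread of other genes, so it can still understate that of GPX2. Outside the control siRNA arrays GPX2 lay at 146 to 373, so those arrays bear on its place in the table as well as on its rank.

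**Figure D2:**
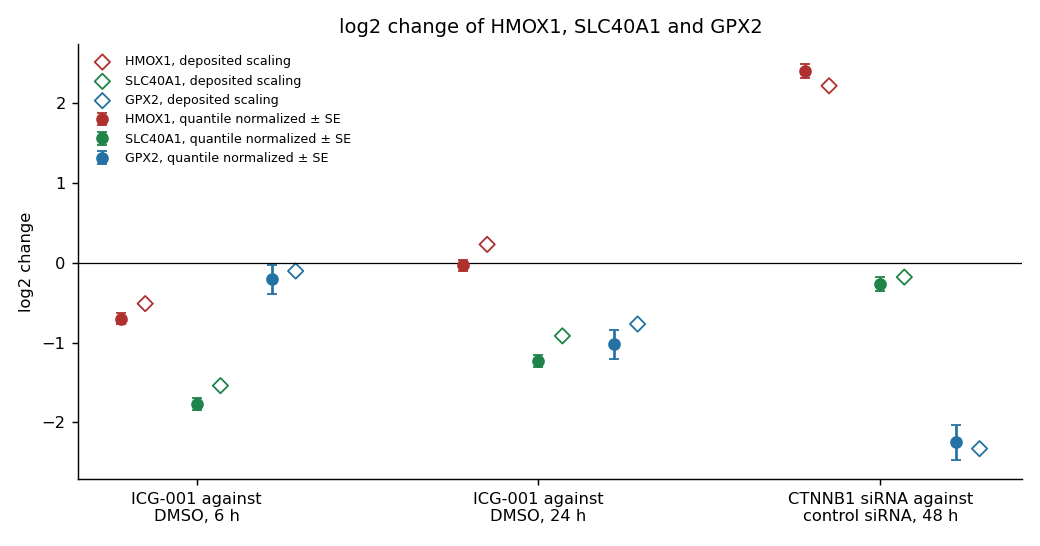
log2 change of each gene with ICG-001 against DMSO at 6 h and at 24 h and with CTNNB1 siRNA against control siRNA at 48 h; filled circles are quantile normalized values with ± SE, and open diamonds the deposited scaling. HMOX1 at 24 h lies on either side of 0 depending on the scaling, and HMOX1 and GPX2 point opposite ways with CTNNB1 siRNA.

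The changes with ICG-001 and with CTNNB1 siRNA are set side by side here. The drug was read at 24 h or earlier and the knockdown at 48 h, in separate experiments. The CTNNB1 siRNA effect minus the ICG-001 effect at 24 h was 2.44 ± 0.11 on the log2 scale for HMOX1 (1.99 in the deposited scaling) and 0.97 ± 0.11 for SLC40A1 (0.74). GPX2 was lower under both agents, by more with the siRNA, at a difference of -1.23 ± 0.28 (-1.56). That difference was -0.69 without control siRNA replicate 2 and -1.76 without control siRNA replicate 1. Its SE of 0.28 pools the spread of the drug and siRNA arrays and understates that of the siRNA arrays. On the siRNA arrays alone, the CTNNB1 siRNA effect on GPX2 by itself had an SE of 0.29. That SE is also drawn by limma towards the spread of other genes and can still be too small.

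At 6 h all 3 genes had every ICG-001 array below every DMSO array, which held, in that direction, for 15.9% of all genes. At 24 h this was so for SLC40A1 and GPX2, against 18.5% of genes. With CTNNB1 siRNA the arrays of SLC40A1 and GPX2 lay below the controls, as for 21.4% of genes, and those of HMOX1 above them, as for 22.6%. In DMSO cultures from 6 h to 24 h, SLC40A1 and GPX2 separated upwards, as did 10.4% of genes, and HMOX1 downwards, as did 11.6%. The members were picked from these same contrasts, so nothing is read from these counts. The histogram of all genes shows where the members stand.

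**Figure D3:**
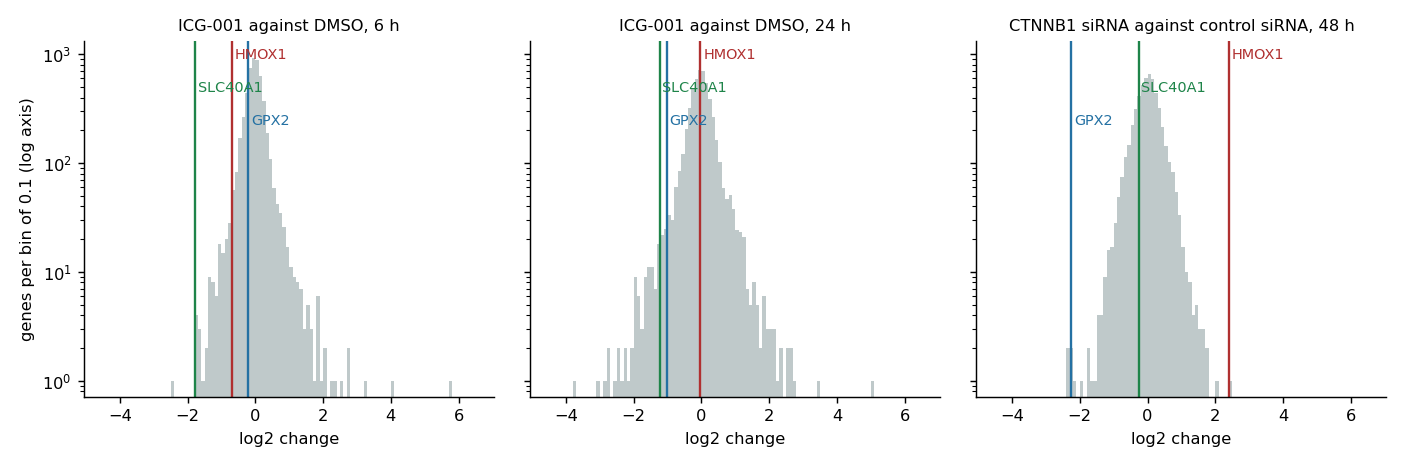
Number of the 5250 genes (log axis) per bin of 0.1 in log2 change for ICG-001 against DMSO at 6 h, at 24 h and CTNNB1 siRNA against control siRNA, with vertical lines at HMOX1, SLC40A1 and GPX2. SLC40A1 lies in the far left tail at 6 h, GPX2 in the far left and HMOX1 in the far right tail of the knockdown, and HMOX1 near 0 at 24 h.

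Within the drug experiment, the order of intensity was DMSO 6 h, ICG-001 24 h, DMSO 24 h and ICG-001 6 h from high to low for HMOX1, and the arrays of the last pair overlapped. After quantile normalization the HMOX1 arrays of ICG-001 24 h and DMSO 24 h overlapped, with means of 8.76 and 8.79 on the log2 scale, and both groups lay above ICG-001 6 h. SLC40A1 ran DMSO 24 h, DMSO 6 h, ICG-001 24 h and ICG-001 6 h, and the middle pair overlapped in deposited intensity but not after normalization. GPX2 ran DMSO 24 h, DMSO 6 h, ICG-001 6 h and ICG-001 24 h, with no overlap between neighbours. On their arrays the members were bright, HMOX1 above at least 92.2% of the probe sets of the table, SLC40A1 above at least 89.2% and GPX2 above at least 85.4%.

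The genes nearest to each member over the 6 group means were found by the root mean square difference of group means, each taken from the mean of its experiment, among 3936 other genes of more than the 25th percentile in brightness. For HMOX1 they were MMP19 (0.22 on the log2 scale), THBS1 (0.27) and CPM (0.30), against a median of 0.75 over all those genes. MMP19 was at -0.07 with ICG-001 at 6 h and 2.01 with CTNNB1 siRNA in log2 change, and THBS1 at -0.55 and 1.54. For SLC40A1 they were FOXA1 (0.26), SPRY1 (0.29) and CASTOR2 (0.30), against a median of 0.81. FOXA1 stood at a log2 change of -1.52 with ICG-001 at 6 h and -1.95 at 24 h, and CASTOR2 at -1.37 and -0.75, but with CTNNB1 siRNA FOXA1 stood at -0.64 and CASTOR2 at 0.57. For GPX2 they were LONRF2 (0.19), KRT23 (0.20) and LRIG1 (0.27), against a median of 0.73. KRT23 stood at a log2 change of -1.04 with ICG-001 at 24 h and -2.32 with CTNNB1 siRNA, and LONRF2 at -1.14 and -1.91. All points share arrays with the members, and the likeness is a description.

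**Figure D4:**
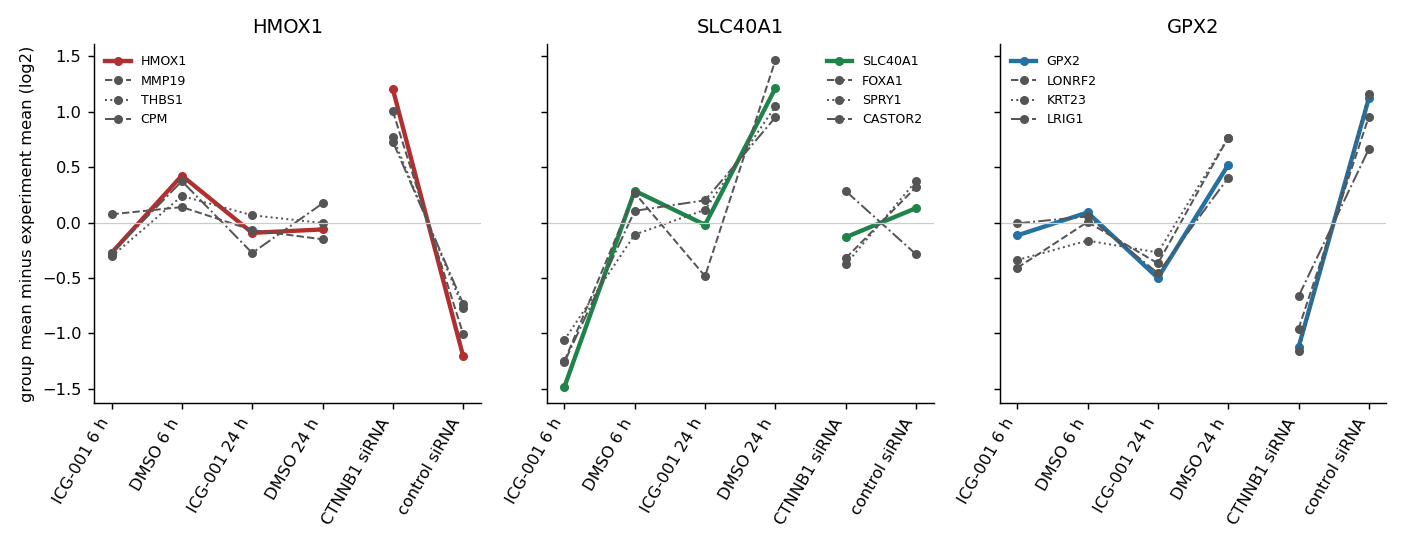
Mean log2 value of each group minus the mean of its experiment for each member (thick line) and the 3 genes nearest to it (thin lines), in the order ICG-001 6 h, DMSO 6 h, ICG-001 24 h, DMSO 24 h, CTNNB1 siRNA and control siRNA. The lines of SLC40A1 and its neighbours are lowest with ICG-001 at 6 h and highest with DMSO at 24 h within the drug experiment.

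The surrounding pathway was read from 12 lists of heme, iron, glutathione and NRF2 genes, of which 41 of 182 listed genes besides the members were measured. At an adjusted p under 0.05 (limma, Benjamini-Hochberg over all 5250 genes), 5 of the 41 rose and 8 fell with ICG-001 at 6 h, 31.7% of them, where 13.8% of all genes passed (5.56% higher and 8.23% lower). At 24 h, 8 rose and 10 fell, 43.9% against 20.5% of all genes (9.22% higher and 11.3% lower). With CTNNB1 siRNA, 5 rose and 5 fell, 24.4% against 12.0% (6.19% higher and 5.83% lower). Their median log2 change was -0.18 at 6 h, -0.03 at 24 h and -0.11 with CTNNB1 siRNA, beside medians over all genes of -0.02, -0.02 and 0.01. In the deposited scaling the counts were 9 up and 2 down at 6 h, 10 and 6 at 24 h and 5 and 5 with the siRNA. That scaling also gave 406 rises and 244 falls over all genes at 6 h in place of 292 and 432, and 738 and 385 at 24 h in place of 484 and 592. The median of all genes at 24 h was 0.09 in that scaling. With quantile normalization and genes of mean intensity under 32 left out, 772 of 2519 passed at 6 h, 1094 at 24 h and 581 with CTNNB1 siRNA. Brighter genes thus passed more often, and the share over all genes is not matched to the brightness of the listed ones. The lists were chosen with earlier results known, so no excess is read from these shares.

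Heme genes were few. ALAD, the enzyme of the second step of heme synthesis, fell with ICG-001 at 24 h by 0.75 ± 0.12 on the log2 scale (limma adjusted p = 5.48e-05), at a mean intensity of 216 with ICG-001 against 321 with DMSO. BLVRA, biliverdin reductase, which acts on the product of heme oxygenase, fell by 0.61 ± 0.15 at 6 h (adjusted p = 0.00763) and by 1.16 ± 0.15 at 24 h (adjusted p = 5.7e-06). BLVRA stood at 61.3, 50.1 and 63.3 with ICG-001 at 24 h, against 116, 142 and 146 with DMSO, and its dim other probe set passed in neither comparison. Neither gene passed with CTNNB1 siRNA, where ALAD was at 0.26 and BLVRA at -0.19.

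Of 6 measured iron uptake genes, 1 fell with ICG-001 at 6 h, 3 fell at 24 h, and 1 rose and 1 fell with CTNNB1 siRNA. TFRC, the transferrin receptor, had 1 probe set in the table, and any that varied less were not seen. Its intensity was 34.7, 58.8 and 32.3 with ICG-001 at 24 h, against 85.2, 108 and 108 with DMSO. It fell there by 1.08 ± 0.14 (limma adjusted p = 5.53e-06), and at 6 h it stood at -0.40 ± 0.14 (adjusted p = 0.0708). SLC11A2, which carries ferrous iron into cells, fell at 6 h by 0.82 ± 0.07, at 24 h by 1.47 ± 0.07 and with CTNNB1 siRNA by 0.83 ± 0.09. Its intensity was 401, 432.5 and 364 with ICG-001 at 24 h, against 956, 888 and 839 with DMSO, and 951 and 929 with CTNNB1 siRNA, against 1409 and 1701 with control siRNA. Its other probe set, at a mean intensity of 21.0, passed in none of these comparisons. SLC39A8, a metal ion importer, rose with CTNNB1 siRNA by 0.73 ± 0.14, at dim intensities of 23.73 and 31.82 against 12.87 and 15.97 with control siRNA, and HFE, a partner of the transferrin receptor, fell at 24 h by 0.34 ± 0.11 (-0.18 and not passed in the deposited scaling). A dimmer probe set of HFE stood at -0.50 at 6 h and -0.74 at 24 h and passed at both times.

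For iron inside the cell and its export, 2 of 15 and 3 of 13 listed genes besides SLC40A1 were measured. SLC25A37, which brings iron into mitochondria, rose at 24 h by 0.68 ± 0.06 (limma adjusted p = 1.08e-07), to a mean intensity of 1299 with ICG-001 against 649 with DMSO. At 6 h it stood at -0.19 ± 0.06, which did not pass, and the difference of the ICG-001 effects at 24 h and 6 h did (0.87 ± 0.09, adjusted p = 3.83e-06), as for 7.81% of all genes. BMP6, a ligand known to induce hepcidin in liver, rose with ICG-001 by 0.82 ± 0.08 at 6 h and by 2.19 ± 0.08 at 24 h (adjusted p = 6.41e-14). BMP6 had an intensity of 829, 907 and 814 with ICG-001 at 24 h, against 151, 168 and 176 with DMSO, and with CTNNB1 siRNA it stood at -0.11 ± 0.09. The hepcidin gene HAMP and the ferritin genes FTH1 and FTL were not analysed here.

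In the glutathione peroxidase and peroxiredoxin list 3 of 17 genes besides GPX2 were measured. GPX8, a peroxidase of the endoplasmic reticulum, rose with ICG-001 at 24 h by 0.62 ± 0.07 (limma adjusted p = 8.25e-07) and fell with CTNNB1 siRNA by 0.38 ± 0.09 (adjusted p = 0.00564). Its intensity was 1541, 1685 and 1541 with ICG-001 at 24 h, against 769, 809 and 806 with DMSO. GPX8 was thus higher and GPX2 lower with ICG-001 at 24 h. At 6 h GPX8 stood at 0.07 ± 0.07 and did not pass, but it did in the deposited scaling (0.40). PRDX2, a peroxiredoxin, fell at 24 h by 0.71 ± 0.24 (adjusted p = 0.0376), a call lost in the deposited scaling (-0.65), and its intensity was 26.9 to 50.7 with ICG-001 and 42.1 to 84.9 with DMSO.

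Genes of glutathione supply and breakdown rose in 3 of 5 measured cases and fell in 1 at both times with ICG-001. CHAC1, which degrades glutathione, rose at both times (limma adjusted p = 1.69e-13 at 6 h and 7.49e-13 at 24 h). Its intensity was 1355, 1369.9 and 1403 with ICG-001 at 6 h, against 4.58, 8.31 and 4.78 with DMSO, and 1072, 1112 and 1005 with ICG-001 at 24 h, against 25.1, 7.40 and 6.59 with DMSO. The DMSO values lie near or below the array medians and mostly below the 16 added, so the size of its change is set by that number and no fold is given. CTH, which makes cysteine, rose by 2.26 ± 0.07 and 1.83 ± 0.07, and the cystine importer SLC7A11 by 0.75 ± 0.08 and 0.57 ± 0.08. SLC7A11 stood at 1104, 1033 and 1037 with ICG-001 at 6 h, against 500.04, 510.07 and 524 with DMSO. GCLM, the modifier subunit of the enzyme that starts glutathione synthesis and an NRF2 target, was the gene that fell, by 0.37 ± 0.09 at 6 h and by 0.38 ± 0.09 at 24 h. Neither fall of GCLM passed in the deposited scaling (-0.20 and -0.21). With CTNNB1 siRNA GCLM rose by 0.68 ± 0.11 (adjusted p = 2.82e-04), to an intensity of 67.2 and 77.6 against 31.3 and 39.4 with control siRNA, and CTH fell by 0.51 ± 0.09, while its other probe set did not pass (-0.28).

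Among 8 measured NRF2 targets besides the members, SLC7A11 and GCLM included, 1 rose and 3 fell at 6 h, 2 rose and 1 fell at 24 h, and 2 rose and 1 fell with CTNNB1 siRNA. At 6 h the deposited scaling gave 3 rises and no fall, so the direction of this list there depends on the scaling. SRXN1, sulfiredoxin, stood at -0.28 ± 0.06 at 6 h and at 0.24 in the deposited scaling, passing in both, and with CTNNB1 siRNA it fell by 0.70 ± 0.07 (-0.61 in the deposited scaling). The exporter gene ABCC3 stood at -0.30 ± 0.06 at 6 h and at 0.21 in the deposited scaling, and one of its other probe sets rose there (0.49). ABCC3 rose at 24 h by 0.21 ± 0.06 (0.71 in the deposited scaling, and 1.08 in that other probe set) and with CTNNB1 siRNA by 0.35 ± 0.08. Its other probe sets did not pass with CTNNB1 siRNA (0.17 and 0.27). At 24 h SRXN1 stood at -0.13 ± 0.06 and did not pass, while in the deposited scaling it passed at 0.38. HMOX1, GCLM and the brightest probe set of ABCC3 were thus higher with CTNNB1 siRNA, while SRXN1 and GPX2, which are also NRF2 targets, were lower. TXNRD1 had 1 probe set in the table, which was dim, at group means of 2.30 to 10.3 in intensity, and passed in none of the 3 comparisons. Probe sets that varied less are outside the table, so this is not a measure of the whole gene. NQO1, NFE2L2, which encodes NRF2, KEAP1 and BACH1 were not analysed here.

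Of the regulators, MAFF, a small Maf protein that pairs with NRF2 or BACH1, rose with ICG-001 by 0.66 ± 0.06 at 6 h and 0.44 ± 0.06 at 24 h and with CTNNB1 siRNA by 0.32 ± 0.08 (limma adjusted p = 0.011). The deposited scaling gave MAFF 1.20 and 1.05 for the drug and 0.34 for the siRNA, and its other probe set did not pass with the siRNA (0.25). SELENOP, a selenium carrier, fell by 0.37 ± 0.09 at 6 h and by 0.35 ± 0.09 at 24 h, neither of which passed in the deposited scaling (-0.21 and -0.11). Among ferroptosis regulators, the lipid enzyme ACSL4 fell with ICG-001 at 24 h by 0.51 ± 0.07 and with CTNNB1 siRNA by 0.81 ± 0.09. Its other probe set, at a mean intensity of 7.71, stood the other way (0.16 and 0.67) and passed in neither. VDAC3, a channel of the outer mitochondrial membrane, fell by 0.37 ± 0.11 at 6 h (-0.25 and not passed in the deposited scaling) and by 0.81 ± 0.11 at 24 h. ALOX5, a lipoxygenase, rose with CTNNB1 siRNA by 0.51 ± 0.06. At 6 h with ICG-001 it stood at -0.25 ± 0.05, against 0.17 in the deposited scaling, passing in both. At 24 h ALOX5 stood at -0.03 ± 0.05 and did not pass, while in the deposited scaling it passed at 0.52. Of 4 measured glutathione transferases, 0 passed in limma in any of the 3 comparisons. At an unadjusted p under 0.05 there was 1, GSTM4 with ICG-001 at 24 h (log2 change -0.44, limma adjusted p = 0.0947), named after its values were seen.

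**Figure D5:**
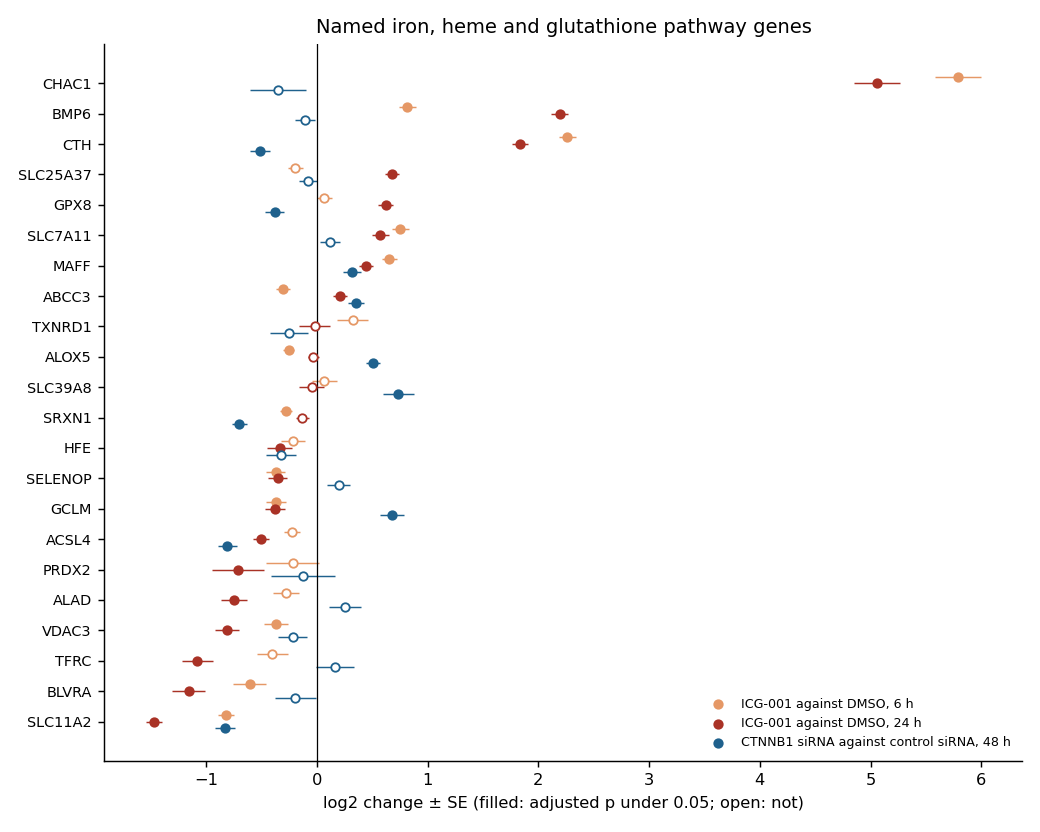
log2 change ± SE of the 22 pathway genes named by rule, with ICG-001 against DMSO at 6 h and 24 h and CTNNB1 siRNA against control siRNA at 48 h; filled points have an adjusted p under 0.05 and open points do not. SLC11A2, BLVRA and TFRC lie lowest and CHAC1 and BMP6 highest with ICG-001 at 24 h, and the size for CHAC1 depends on the number added before log2.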

How the data were processed

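RNA of the 16 AsPC-1 samples had been labelled with biotin and hybridised to Affymetrix arrays, per the labels' protocols. The deposited intensity values are linear, 1 per probe set and array, and how probes were summarised, scaled and selected is not given in the sources used here. The table holds 9554 probe sets, all with an SD over the arrays of about 0.40 times their mean or more, so genes that varied less are outside every count. GEO's platform annotation gave 1 gene for 6442 probe sets, several for 252 and none for 2860, and 6432 symbols were updated through RefSeq gene identifiers. The number 16 was added, log2 taken and arrays quantile normalized, and the brightest probe set was kept for each of 5250 genes. One model with the 6 groups was fitted with limma 3.58.1 (R 4.3.3, intensity trend, 10 residual and 7.84 prior degrees of freedom), two-sided, with Benjamini-Hochberg adjustment, and was tested on simulated data. Nothing in the labels tells whether the biological replicates are separate cultures, so SEs and p-values measure the spread between these arrays. Their number limits the precision.

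The members and lists were chosen with earlier results of these data known. Named besides the members were up to 4 called genes with the largest change from each list and comparison, 13 genes fixed by name (5 measured) and the 3 genes nearest to each member. Alternatives were other scalings, other added numbers, a filter on dim genes, every probe set, 1 experiment at a time, no trend, a replicate block and leaving out each array. Python 3.11.15, pandas 2.3.3 and matplotlib 3.10.9 were used for summaries and plots.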

Additional observations from a re-analysis of the deposited data

Results flagged for a closer look

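HMOX1 was picked out because, in deposited intensity, every ICG-001 array lay below every DMSO array at 6 h and above it at 24 h. The ICG-001 effect at 24 h minus that at 6 h was 0.74 on the log2 scale in the deposited scaling. The difference was not tested, since HMOX1 was chosen with these results known, and the rise at 24 h was not seen after quantile normalization.

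For 7 pathway genes the ICG-001 effect differed between 24 h and 6 h by the test of that difference (limma, adjusted p under 0.05, as for 7.81% of all genes). On the log2 scale the effect at 24 h minus that at 6 h was 1.38 for BMP6, 0.87 for SLC25A37, 0.55 for GPX8, 0.51 for ABCC3, -0.43 for CTH, -0.65 for SLC11A2 and -0.68 for TFRC. In the deposited scaling TFRC did not pass (-0.69, limma adjusted p = 0.053), while ALOX5 (0.35) and TF (0.87), the transferrin gene, did, and TF is named after its values were seen.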

How the results depend on the processing

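In the deposited scaling the log2 changes of HMOX1 were -0.51 with ICG-001 at 6 h, 0.23 at 24 h, where the sign turned, and 2.22 with CTNNB1 siRNA, and those of SLC40A1 were -1.54 at 6 h and -0.91 at 24 h. With each array centred on its median they were -0.52, 0.11 (sign turned) and 2.22 for HMOX1 and -1.55 and -1.04 for SLC40A1. Quantile normalization within each experiment gave 2.21 for HMOX1 with CTNNB1 siRNA, and 64 in place of 16 added gave 2.32 there and -1.60 for SLC40A1 at 6 h. Leaving out 1 array at a time gave, with CTNNB1 siRNA, 2.32 to 2.50 for HMOX1, -0.43 to -0.093 for SLC40A1 and -2.78 to -1.71 for GPX2. GPX2 with ICG-001 kept its sign under every alternative run and moved by less than 1 SD pooled within all 6 groups (0.28). The widely spread control siRNA arrays enlarge that SD, so it is a loose measure for the drug arrays. Many of these runs could not move a member's change. They are the filter on dim genes, every probe set, 1 experiment at a time, no trend, the replicate block and leaving out an array of another group. Only the other scalings, the other added numbers and leaving out an array of the compared groups bear on it. The GPX2 change at 24 h ran from -1.09 to -0.77 over these alternatives. With 1 array left out, HMOX1 with ICG-001 at 24 h lay at -0.07 to 0.03. With CTNNB1 siRNA 631 genes passed, against 414 with arrays centred on their medians and 289 on the 4 siRNA arrays alone, where fewer degrees of freedom remain. A replicate block (number within each experiment) gave 734, 1093 and 656 genes in place of 724, 1076 and 631 in the 3 comparisons. It cannot alter the members' changes, because each group holds 1 array of each number. Same-numbered arrays did not deviate together (correlation -0.04 to 0.09 in the drug experiment and 0.01 in the siRNA experiment), and not every array correlated best with its own number. All alternatives planned were run. Signal over background limits CHAC1, TXNRD1, SLC39A8, PRDX2, MMP19 with control siRNA and the 2nd probe sets of ACSL4, BLVRA and SLC11A2. It did not limit the members.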
